A study of Mus musculus with 20 samples.

Results

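*Slf2* and *Twnk* are 2 of the 36 protein-coding genes in the captured stretch of chromosome 19, and their promoters lie between the centromere and the *Lbx1* and *Fgf8* domains, outside every engineered rearrangement. Each promoter was taken as the 5 kb bin that holds the gene's start: 45005001 to 45010000 for *Slf2* (named *Fam178a* in the annotation used) and 45080001 to 45085000 for *Twnk* (named *Peo1*), in mm9. All contacts of either bin from 44440001 to 46400000 were read, which is 777 of 75855 bin pairs in a map of the wild-type or of an inversion and 773 of 75078 in a map of the duplication.

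*Slf2* encodes a partner of the SMC5/6 complex, which recruits that complex to damaged or replicating DNA. *Twnk* encodes Twinkle, the helicase that unwinds mitochondrial DNA at the replication fork. Promoters of such broadly used genes often sit in gene-dense stretches between the regulatory domains of developmental genes, and a domain boundary is known to lower contact between the elements on its sides. *Lbx1*, a homeobox gene of migrating limb muscle precursors, and *Fgf8*, a growth factor of the apical ectodermal ridge (AER), are the developmental genes here. The *Fgf8* enhancers lie mainly in the introns of *Fbxw4*. Whether rearrangements that move these enhancers also change what the flanking promoters touch is the question asked of both bins.

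Capture Hi-C of fore- and hindlimb buds at E11.5 was analysed, an assay that ligates DNA ends lying close together in fixed nuclei, enriches 1 chosen region and counts the ligated read pairs. The 20 libraries were merged by the authors into 6 maps of 392 bins: wild-type, homozygous *Dup*, *Inv1* and *Inv2* and heterozygous *Inv1*, and 1 library of heterozygous *Dup*. The wild-type was c57bl6.J, whereas all mutants came from G4 ESC edited with CRISPR/Cas9, so genotype and background cannot be told apart. For its single-cell data, however, the paper gives *Dup* the strain of that wild-type and *Inv1* the G4 background, so the background of *Dup* is uncertain. The wild-type and each homozygous mutant held 3 biological replicates and 1 technical replicate, and heterozygous *Inv1* held 3. The heterozygous *Dup* library is called so from its title, since its genotype label names an inversion. *Dup* is a tandem duplication of 541 kb (45251634 to 45792725), *Inv1* an inversion of 123 kb (45611051 to 45734101) and *Inv2* an inversion of 460 kb (45332289 to 45792725). *Dup* doubles the *Lbx1* TAD and most of the *Fgf8* TAD, *Inv1* turns the boundary between both TADs with the *Fbxw4* enhancers, and *Inv2* turns most of both TADs. *Slf2* lies 246 kb, 605 kb and 327 kb from the centromeric breakpoints of *Dup*, *Inv1* and *Inv2*, and *Twnk* lies 171 kb, 530 kb and 252 kb from them. Expression was not analysed here, so the labelled tissue could not be checked against its marker genes.

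The maps held from 3350758 (heterozygous *Dup*) to 13101700 read pairs (homozygous *Dup*), and the wild-type held 7867931. Outside its own bin and 5 kb on either side, the *Slf2* bin had 38898 read pairs in the wild-type, 43739 in *Dup*, 55733 in *Inv1*, 60673 in *Inv2*, 11958 in heterozygous *Dup* and 36744 in heterozygous *Inv1*. The *Twnk* bin had 32855, 50091, 54069, 56993, 11854 and 41530. Brackets give 95% intervals from these read pairs, which cover counting error only. Since each genotype was 1 merged map, the spread between embryos is unknown and no replicate-level test was possible. All comparisons share the 1 wild-type map. TAD and boundary positions were read by eye from the study's map and are uncertain by at least 1 bin.

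The sequence at both promoters is shown because each bin is read through the restriction fragments around its start and because the 2 starts differ in what lies there. *Slf2* starts at 45005609 on the plus strand, on a DpnII fragment of 912 bases (45005345 to 45006257). The capitals mark a match to a CTCF-type core, searched as CC, 3 bases of any kind and AGGGGGC after the motif of this boundary protein, and read on the minus strand at 45005609 to 45005620, and these are the first 12 transcribed bases.
*Slf2* start, plus strand, chr19:45005459-45005620 (mm9): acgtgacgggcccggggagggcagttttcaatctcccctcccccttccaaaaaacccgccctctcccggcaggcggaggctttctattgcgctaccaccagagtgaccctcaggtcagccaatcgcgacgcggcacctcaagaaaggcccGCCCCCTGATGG
*Twnk* has annotated starts at 45080563 and 45081048 and overlaps by 370 bases with *Mrpl43*, a gene for a protein of the mitochondrial ribosome that starts at 45080932 on the other strand. Both genes thus start in the same bin and on the same DpnII fragment of 791 bases (45080510 to 45081301), and no contact here can be given to the one rather than the other. The bases between the *Mrpl43* start and the downstream *Twnk* start are intronic in the longer *Twnk* transcript. The capitals mark 2 matches to CCGGAAG, an ETS-type core, both read on the minus strand.
Between the *Mrpl43* and *Twnk* starts, plus strand, chr19:45080933-45081047 (mm9): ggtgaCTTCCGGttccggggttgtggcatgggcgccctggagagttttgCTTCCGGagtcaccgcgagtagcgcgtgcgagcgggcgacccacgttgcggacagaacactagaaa
The *Twnk* bin itself held no match to the CTCF-type core. The nearest one began 3892 bases past its end, in front of *Lzts2*, and was on the plus strand, opposite to the one at *Slf2*.
Core next to the *Twnk* bin, plus strand, chr19:45088883-45088912 (mm9): ctcacgtgaCCGTGAGGGGGCggctttagg
Searched on both strands, the CTCF-type core stood in 25 of the 392 bins (6.38%). The ETS-type core stood in 4.86% (1596 of 32851) of RefSeq promoters of GRCm38 over as many bases before the start. A match of letters is no measured binding site. The *Slf2* bin had 19 DpnII sites and the *Twnk* bin 15, against a median of 12.

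In the wild-type, both promoters had most of their contacts short of the *Lbx1* TAD, toward the centromere. Of the *Slf2* profile, 45.6% lay centromeric of *Slf2* and 42.9% between *Slf2* and the centromeric boundary. Of the *Twnk* profile, 24.0% lay centromeric of *Slf2* and 59.8% between *Slf2* and that boundary. The *Lbx1* TAD, although next in line, took 4.04% [3.83-4.25] of the *Slf2* profile and 6.00% [5.72-6.27] of the *Twnk* profile.

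To take out distance, contact was divided by the mean of the map's bin pairs equally far apart, which gives an observed over expected value. Over the *Lbx1* TAD this value was 0.394 [0.374-0.416] for *Slf2* (1515 read pairs) and 0.432 [0.412-0.452] for *Twnk* (1901 read pairs), the lowest of the 6 stretches for both. Past the TAD, contact returned toward the mean for its distance. The *Fgf8* TAD stood at 0.794 [0.731-0.863] for *Slf2* and 1.02 [0.949-1.09] for *Twnk*, and the telomeric flank at 1.14 [1.08-1.19] and 1.22 [1.16-1.28]. The flanking promoters were therefore depleted over the neighbouring domain, set against all pairs equally far apart. At the distances of the telomeric flank, the captured pairs mostly span part or all of both TADs themselves. A value near 1 there is close to built in, so these values cannot show whether the depletion ends past the *Lbx1* TAD. The telomeric boundary, next to *Fgf8*, stood at 1.45 [1.25-1.68] for *Slf2* and 1.58 [1.37-1.82] for *Twnk*, whereas the centromeric boundary stood at 0.406 [0.350-0.472] and 0.400 [0.350-0.458].

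**Figure D1:**
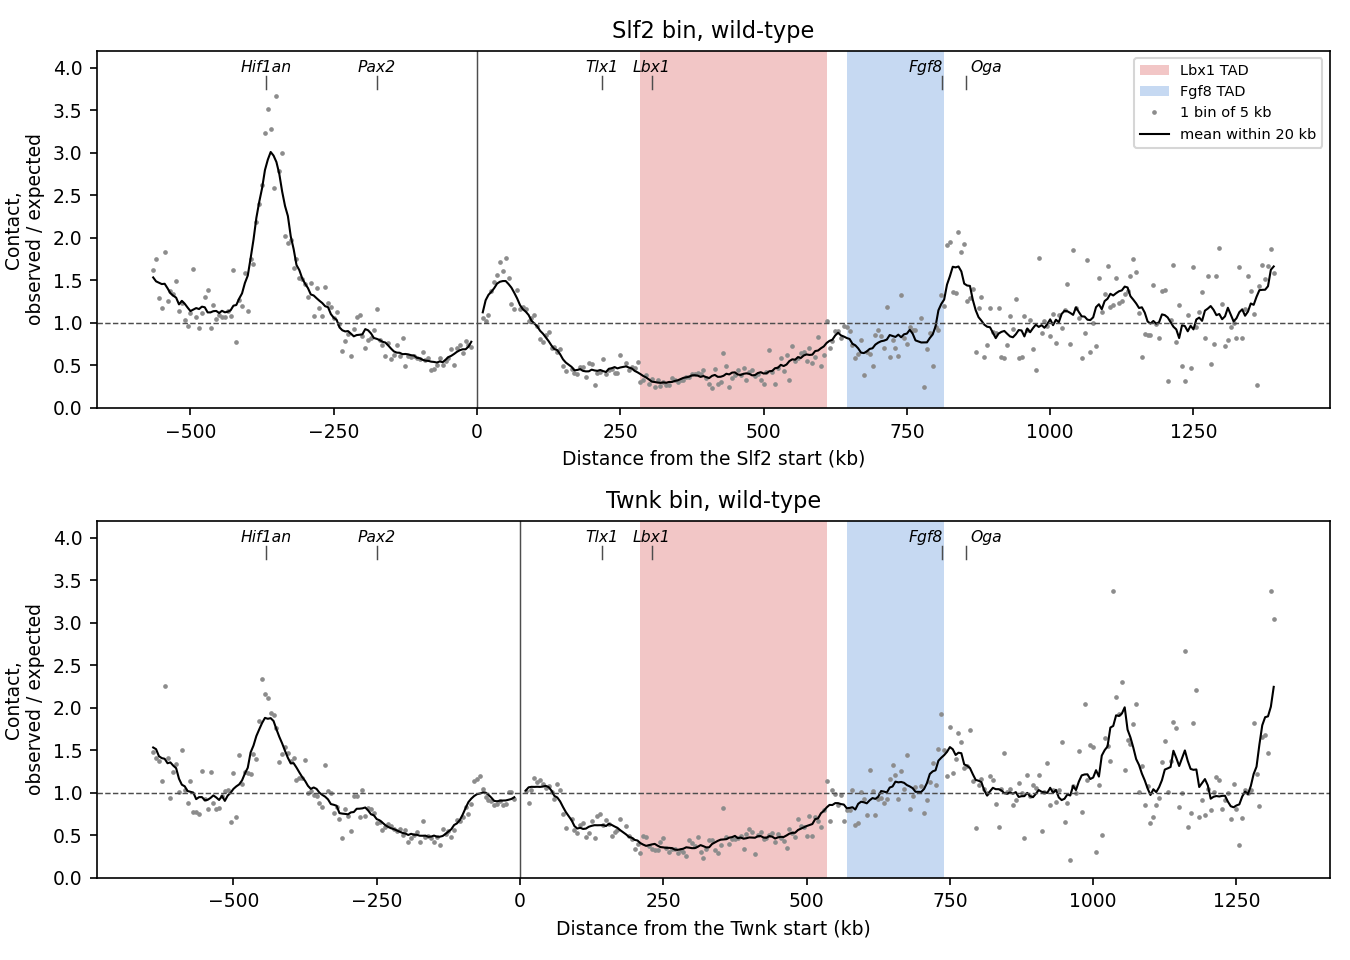
Contact of the *Slf2* bin (top) and the *Twnk* bin (bottom) in the wild-type, as observed over expected against the distance from each start in kb. Grey dots are bins, the black line is the mean within 20 kb, and the shaded spans are the *Lbx1* and *Fgf8* TADs. Both lines are lowest over the *Lbx1* TAD and rise near *Hif1an*, where the *Slf2* line is at its highest. Over the whole *Lbx1* TAD the value is 0.394 for *Slf2* and 0.432 for *Twnk*, and the lines run below this in places. Both lines also rise above 1 in stretches past *Fgf8*.

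The 2 promoters differed from each other although only 75 kb apart. *Twnk* had 1.28 [1.15-1.43] times the *Slf2* value over the *Fgf8* TAD and 1.23 [1.08-1.40] times over the enhancer region, the part of that TAD from 45650001 to 45775000. Over the *Lbx1* TAD the quotient was 1.09 [1.02-1.17], and at the centromeric boundary it was 0.985 [0.805-1.205]. Centromeric of *Slf2* it was 0.922 [0.897-0.949], and between *Slf2* and the centromeric boundary it was 0.873 [0.854-0.893]. *Twnk* was thus above *Slf2* over both TADs and below it over both stretches short of the boundary, *Slf2* itself standing at 0.891 [0.877-0.905] on its centromeric side. In read pairs, however, the *Lbx1* TAD gave 0.536 [0.510-0.564] for *Slf2* and 0.529 [0.506-0.554] for *Twnk*, so the order over that TAD depends on the processing.

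Close to each start the sides were also unequal. Between 25 and 100 kb away, *Slf2* had 2.35 [2.26-2.44] times as much contact on its telomeric side, toward its own gene body, *Sema4g* and *Twnk*, as on its centromeric side (8785 and 3971 read pairs). From 100 to 200 kb the sides were near equal at 0.965 [0.910-1.02], and from 200 to 280 kb the telomeric side had 0.461 [0.413-0.515] times the centromeric contact. *Twnk* was close to even at 25 to 100 kb, with 1.09 [1.05-1.14], and at 100 to 200 kb, with 1.11 [1.02-1.195]. It too was low on the telomeric side at 200 to 280 kb, with 0.569 [0.514-0.629]. That window ends at the centromeric boundary for *Slf2* and holds the boundary and *Lbx1* for *Twnk*.

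Contact between the 2 promoters, read over 3 x 3 bins, was above the mean for its distance in the 6 maps. The single bin pair was above that mean in all but heterozygous *Dup*, where it stood at 0.974 [0.817-1.16] from 124 read pairs. Over the 3 x 3 bins around their pair, observed over expected was 1.22 [1.17-1.27] in the wild-type (2543 read pairs), 1.18 in *Dup*, 1.28 in *Inv1*, 1.29 in *Inv2*, 1.26 in heterozygous *Dup* and 1.32 in heterozygous *Inv1*. Set against the wild-type after joint scaling (defined with the mutants), the pair stood at 0.964 [0.912-1.02] in *Dup*, 1.03 [0.975-1.08] in *Inv1*, 1.02 [0.968-1.07] in *Inv2*, 1.04 [0.955-1.13] in heterozygous *Dup* and 1.07 [1.01-1.12] in heterozygous *Inv1*. No homozygous rearrangement moved this contact beyond its counting interval. The interval of heterozygous *Inv1* alone left out 1.

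Among promoters, the strongest distant contact of *Slf2* was not on the side of the developmental domains but on the centromeric side. Of the 34 other protein-coding starts at least 25 kb away, in 29 bins, the highest was *Hif1an*, 370 kb away, which encodes the oxygen-dependent asparaginyl hydroxylase of HIF, at 3.23 [2.84-3.67] (232 read pairs). Next came its neighbours *Ndufb8*, a complex I subunit, at 2.40 [2.05-2.81] (156 read pairs) and *Sec31b*, a COPII coat protein, at 2.19 [1.87-2.56] (155 read pairs). *Oga*, a fixed partner gene taken up further below, followed at 1.92 [1.41-2.62] from 40 read pairs. Below it came *Nolc1*, a nucleolar protein, at 1.76 [1.21-2.54] from 28 read pairs. *Armh3* stood at 1.74 [1.16-2.62] from 23 read pairs, and these starts all lie past *Fgf8*. The intervals of *Oga*, *Nolc1* and *Armh3* are wide and overlap, so their order is not resolved.

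*Twnk* shared part of this list. Of 31 starts in 27 bins, the highest value belonged to the bin of *Pprc1*, a coactivator of mitochondrial gene programmes, and *Ldb1*, a LIM-domain cofactor, at 3.37 [2.15-5.29], but from 19 read pairs. *Hif1an* stood at 2.17 [1.80-2.61] (110 read pairs). *Fgf8*, a fixed partner gene taken up further below, was next at 1.92 [1.44-2.56] (46 read pairs), above *Ndufb8* at 1.84. *Pitx3*, a homeobox gene, stood at 1.83 [1.06-3.15] from 13 read pairs and *Nolc1* at 1.81 [1.25-2.60] from 29. The *Pprc1* and *Hif1an* intervals overlap, so which of them ranks first for *Twnk* is not settled at this depth. Over 3 x 3 bins the *Pprc1* pair held 135 read pairs in the wild-type, at 2.16 times the mean for its distance. It stood at 0.942 [0.758-1.17] times the wild-type in *Inv1* and 0.957 [0.769-1.19] in *Inv2* (295 and 296 read pairs), and 0.953 [0.730-1.24] in *Dup*. *Slf2* with *Pprc1* (75 read pairs in the wild-type) stood higher, at 1.71 [1.23-2.37] in *Dup*, 1.37 [1.02-1.82] in *Inv1* and 1.37 [1.02-1.83] in *Inv2*. In heterozygous *Dup* and *Inv1* the intervals held 1 for both promoters.

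The *Hif1an* peak spanned the 55 kb from 44620001, with *Sec31b*, *Ndufb8* and *Hif1an* starts inside, and was chosen after its values were seen. Over it *Slf2* stood at 2.84 [2.73-2.96] (2561 read pairs), with single bins from 2.02 to 3.67 and the highest bin starting at 44655001. *Twnk* stood at 1.80 [1.69-1.91] (1154 read pairs). None of the 11 bins of the stretch held the CTCF-type core that is at the *Slf2* start. Only 25 of all 392 bins (6.38%) held it, so its absence does not set the stretch apart. The stretch lies far outside each rearrangement. After joint scaling *Slf2* contact with it was 0.958 [0.906-1.01] times the wild-type in *Dup*, 0.911 [0.865-0.959] in *Inv1*, 0.991 [0.942-1.04] in *Inv2*, 0.830 [0.765-0.901] in heterozygous *Dup* and 0.900 [0.850-0.954] in heterozygous *Inv1*. For *Twnk* it was 1.09 [1.01-1.17], 0.992 [0.921-1.07], 1.05 [0.976-1.13], 1.06 [0.950-1.18] and 1.03 [0.952-1.11] in the same order. The largest of these differences from the wild-type is in the single-library map of heterozygous *Dup*.

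Against the fixed partner genes, *Slf2* and *Twnk* were both far below the mean at *Lbx1*, at 0.342 [0.252-0.464] and 0.336 [0.250-0.451]. At *Tlx1*, a homeobox gene between *Twnk* and the boundary, *Slf2* stood at 0.419 [0.295-0.596] and *Twnk* at 0.753 [0.600-0.946]. At *Pax2*, a paired-box gene centromeric of *Slf2*, the order was turned, with 1.16 [0.966-1.39] for *Slf2* and 0.641 [0.466-0.880] for *Twnk*. At *Btrc*, an F-box gene in the *Lbx1* TAD, the values were 0.649 and 0.821, and at *Poll* and *Dpcd*, which start in the same bin in the interval between the TADs, 0.901 and 0.851. At *Fbxw4* they were 0.803 from 10 read pairs and 1.33 from 17, too few to order. *Fgf8* stood at 1.33 [0.949-1.86] for *Slf2* (34 read pairs) and 1.92 [1.44-2.56] for *Twnk* (46 read pairs), and *Oga*, which encodes the enzyme that removes O-GlcNAc, at 1.92 [1.41-2.62] and 1.29 [0.890-1.87]. Neighbouring values in this order whose intervals overlap, *Fgf8* and *Oga* among them, are not told apart.

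The promoters with the wild-type profile most like that of *Slf2* were *Sema4g*, a semaphorin gene 55 kb away, with r = 0.826 over 359 bins, the *Twnk* and *Mrpl43* bin with r = 0.736 over 355 bins, and the *Pdzd7* and *Sfxn3* bin with r = 0.716 over 352 bins. For *Twnk* they were *Sema4g* (r = 0.818 over 366 bins), *Lzts2* (r = 0.793 over 369 bins) and the *Pdzd7* and *Sfxn3* bin (r = 0.792 over 363 bins). These are Pearson correlations of log2 observed over expected contact across bins of 1 map, leaving out bins within 50 kb, among 29 start bins. They are a description, since neighbouring bins share their fragments and their surroundings. The least like was *Npm3* for *Slf2* (r = -0.365) and *Fgf8* for *Twnk* (r = -0.329).

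For mutants, each map was scaled jointly with the wild-type at every distance with the rearranged interval left out, and the ratio is the mutant over the wild-type mean. A ratio is called higher or lower when it is at least 1.2-fold from 1 and its interval leaves out 1. Profile scaling, used beside it, brings each promoter's contacts outside its own surroundings to the same total, as in virtual 4C. Joint scaling rests at long distances on pairs between the flanks, which the tandem order of *Dup* itself moves 541 kb apart, so telomeric-flank ratios in *Dup* come out near 1 by construction and the enhancers come out high. In the inversions the distance between the flanks does not change. A profile ratio depends also on the contacts near the promoter itself, which make up most of its total.

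In *Dup*, contact of both promoters with the enhancer region had no direction that held under each scaling. Joint scaling gave 1.38 [1.23-1.56] for *Slf2* (474 read pairs in the wild-type, 864 in *Dup*) and 1.31 [1.18-1.45] for *Twnk* (624 and 1369 read pairs), both called higher. The same scaling called 79.9% of all bins centromeric of the duplication, taken in turn as viewpoints, with a median of 1.42, so both promoters were near the background. Profile scaling gave 1.04 [0.922-1.17] and 1.02 [0.922-1.13], with 4.40% of such bins called. A scaling restricted to pairs on the same side of the duplication, chosen after the data were seen, gave 0.939 [0.832-1.06] for *Slf2* and 1.01 [0.912-1.12] for *Twnk*.

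Those *Dup* values come from a map first balanced to equal bin totals, which lowers the signal of the duplicated bins. They are not values per copy, and how much of the extra copy they still hold was not determined. In the deposited LOIC map, which keeps the extra copy, the profiles gave 1.51 [1.34-1.71] for *Slf2* and 1.47 [1.32-1.63] for *Twnk*. The wild-type decay read at the distances of the tandem order and summed over both copies gives 1.45 and 1.42. Over the *Lbx1* TAD the LOIC profile gave 1.54 [1.44-1.65] and 1.52 [1.44-1.61], where distance alone gives 1.29 and 1.26. On this scale the enhancer intervals of both promoters hold the value that distance and copy number give, and those of the *Lbx1* TAD lie above it.

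Contact with the telomeric flank moved the other way in *Dup*. The extra copy pushes *Slf2* and *Twnk* 541 kb farther from *Fgf8*, *Oga* and the genes past them. Under profile scaling, the flank stood at 0.772 [0.717-0.831] for *Slf2* and 0.682 [0.636-0.731] for *Twnk*, both called lower, as were 96.9% of the centromeric bins. Distance alone gives 0.661 and 0.598, below both of these values, which come from the balanced map. In the deposited LOIC profile the flank stood at 0.737 [0.685-0.793] and 0.643 [0.600-0.689], closer to the values of distance. At the telomeric boundary the profile ratios were 0.661 [0.525-0.833] and 0.589 [0.475-0.730], both called lower beside 60.4% of bins called, and distance alone gives 0.455 and 0.464. The LOIC profile gave 0.581 [0.461-0.732] and 0.508 [0.410-0.630] there, and the *Twnk* interval holds the value of distance.

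**Figure D2:**
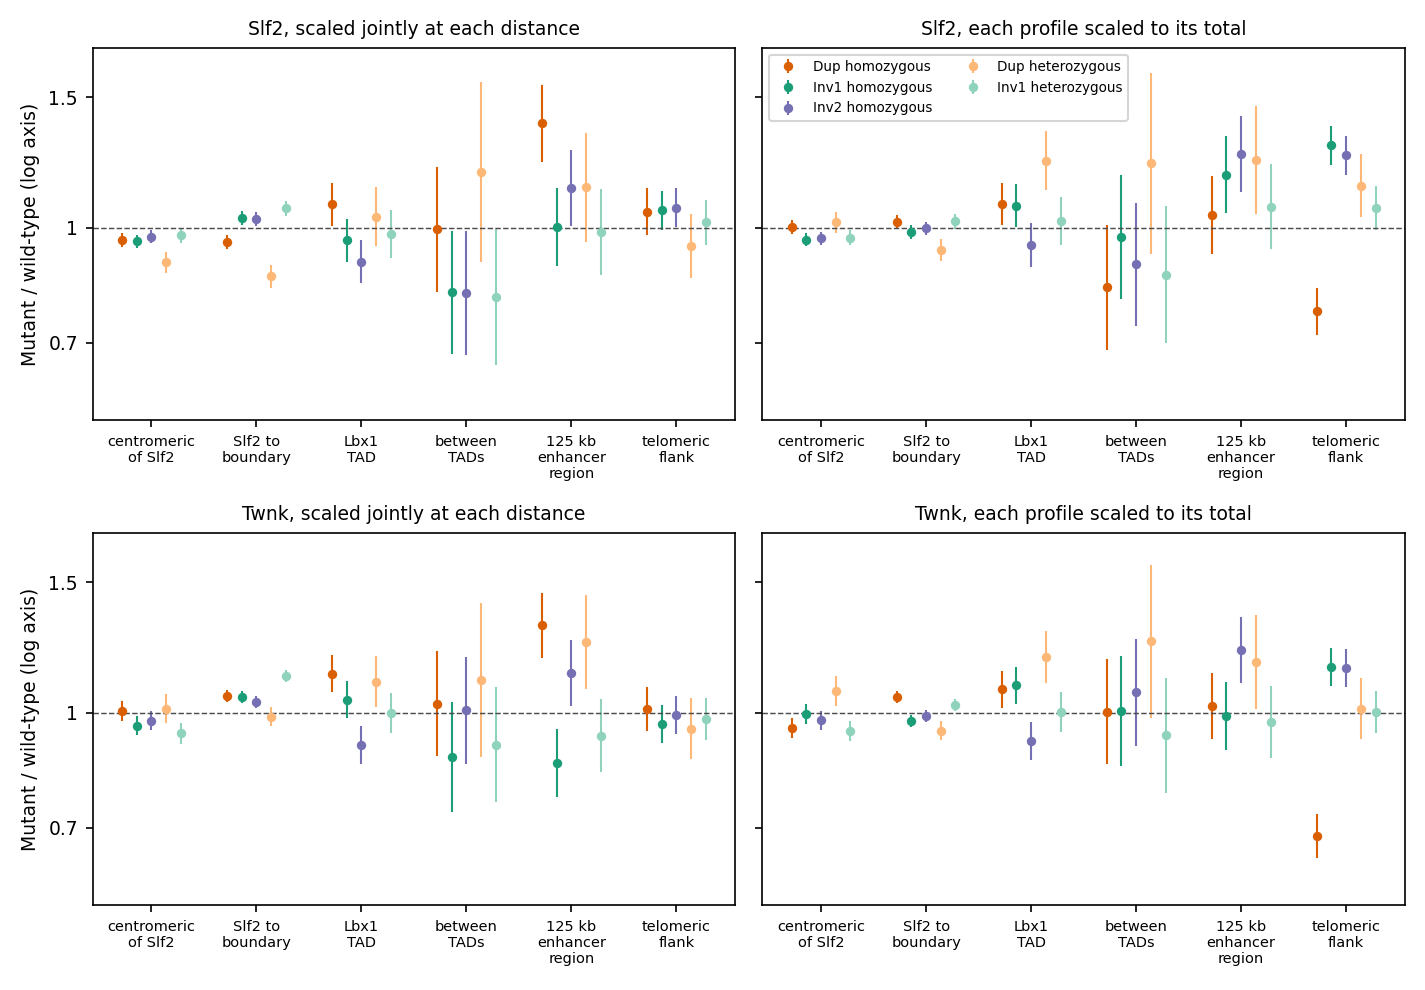
Mutant over wild-type contact (log axis) of *Slf2* (top) and *Twnk* (bottom) with 6 stretches, under joint scaling (left) and profile scaling (right). Points are merged maps, the colours are genotypes and the bars are 95% counting intervals. The enhancer region in *Dup* is raised on the left only (1.38 and 1.31), and the telomeric flank in *Dup* is lowered on the right only (0.772 and 0.682).

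*Inv1* turns the enhancers by 123 kb and leaves them at almost the same distance from the flanking promoters. *Slf2* contact with the enhancer region stood at 1.00 [0.890-1.13] (474 and 833 read pairs) and *Twnk* contact at 0.855 [0.769-0.950] (624 and 1069 read pairs), neither called, where 12.4% of centromeric bins were called and their median was 0.920. Distance alone gives 1.06 and 1.11. Profile scaling gave 1.18 [1.05-1.33] and 0.991 [0.892-1.10], again with neither called and 14.9% of bins called. Only 17 bins of the region lie inside *Inv1*. Over these the joint ratios were 1.01 [0.874-1.17] for *Slf2* and 0.791 [0.697-0.898] for *Twnk*. The *Twnk* value meets the rule for lower, but the share of centromeric bins called was not computed for these bins. For *Twnk* the joint ratio over the 50 kb with the AER enhancers was 0.802 [0.683-0.942], called lower where 18.0% of bins were called with a median of 0.894, and its profile ratio was 0.941 [0.802-1.11]. *Twnk* contact with the centromeric boundary was 1.25 [1.06-1.47] in *Inv1* (466 read pairs against 230) and 1.21 [1.03-1.43] under profile scaling, called higher both times. Of the centromeric bins 15.5% were called under joint and 24.2% under profile scaling, with medians of 1.07 and 1.16. In heterozygous *Inv1* the *Twnk* ratio was 0.879 [0.733-1.05]. *Slf2* contact with the same boundary was 0.933 [0.769-1.13] in *Inv1*. Under profile scaling the telomeric flank stood at 1.29 [1.22-1.37] for *Slf2*, called higher as in 54.7% of bins, and 1.15 [1.09-1.22] for *Twnk*, while joint scaling gave 1.06 and 0.967.

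*Inv2* brings the enhancers from a mean of 705 kb to 405 kb from *Slf2* and from 630 kb to 330 kb from *Twnk*. Distance alone would give contact ratios of 2.45 and 2.65. The measured ratios were 1.13 [1.01-1.27] for *Slf2* (474 and 958 read pairs) and 1.13 [1.02-1.25] for *Twnk* (624 and 1338 read pairs), neither called, whereas 53.4% of centromeric bins were called, with a median of 1.22. Profile scaling gave 1.26 [1.12-1.42] and 1.22 [1.10-1.35], both called higher, as were 91.3% of bins. Over the 50 kb with the AER enhancers, *Slf2* stood at 1.25 [1.04-1.51] jointly and 1.36 [1.13-1.63] under profile scaling, called higher both times beside 17.4% and 56.5% of bins. *Twnk* stood there at 1.06 [0.906-1.23] and 1.14 [0.977-1.33], not called. Under either scaling both promoters gained much less contact with the enhancers than the shorter distance gives.

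Read at the distances of the inverted order, observed over expected for the enhancer region fell from 0.788 [0.715-0.868] to 0.377 [0.353-0.404] for *Slf2* and from 0.968 [0.890-1.05] to 0.434 [0.410-0.459] for *Twnk*. These values are near those of the wild-type *Lbx1* TAD with the same promoters (0.396 and 0.433). A comparison by position needs no such expectation. The enhancer bins now occupy the positions 45350001 to 45475000, and their contact in *Inv2* was 1.01 [0.904-1.12] times the wild-type contact of those positions for *Slf2*. For *Twnk* it was 1.11 [1.01-1.22] times, and under profile scaling the values were 1.08 [0.968-1.203] and 1.14 [1.03-1.25]. Over the 50 kb with the AER enhancers they were 1.02 [0.857-1.21] and 0.985 [0.847-1.15]. The turned part of the *Lbx1* TAD, in its new place farther away, stood at 0.897 [0.831-0.970] and 0.865 [0.807-0.926] of the contact of that place in the wild-type. By position, the jointly scaled values of both promoters thus lay between 0.865 and 1.11 times those of the sequence replaced.

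**Figure D3:**
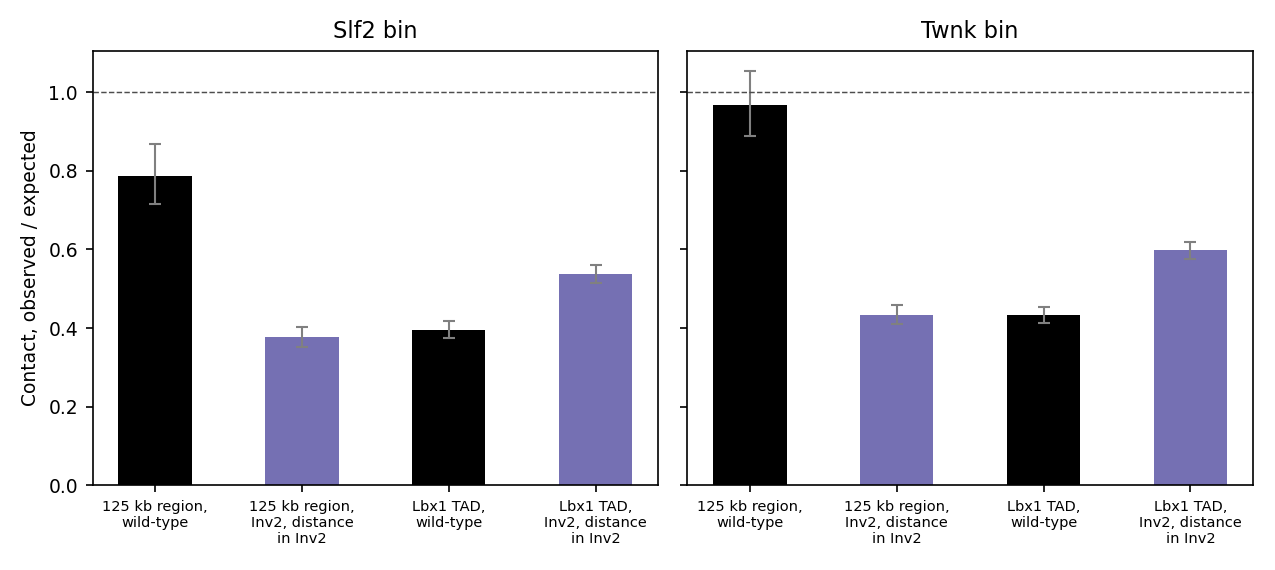
Observed over expected contact of the *Slf2* bin (left) and the *Twnk* bin (right) with the enhancer region and the *Lbx1* TAD, in the wild-type (black) and in *Inv2* (purple) with the distances of the inverted order. Bars start at 0, whiskers are 95% counting intervals and the dashed line is the mean for the distance. The enhancer bars fall from 0.788 to 0.377 and from 0.968 to 0.434, and the *Lbx1* TAD bars rise from 0.396 to 0.538 and from 0.433 to 0.598.

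The *Lbx1* TAD as a whole stood at 0.901 [0.842-0.964] for *Slf2* and 0.906 [0.854-0.961] for *Twnk* in *Inv2*, where distance alone gives 0.656 and 0.645. At the inverted-order distances its observed over expected rose to 0.538 [0.516-0.561] and 0.598 [0.576-0.620]. In *Inv1* the enhancers that were turned, in 17 bins, stood at 0.899 [0.786-1.03] of the wild-type contact of their new place for *Slf2* and 0.721 [0.640-0.813] for *Twnk*. Under profile scaling these were 1.06 [0.924-1.21] and 0.839 [0.744-0.946].

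The telomeric flank in *Inv2* kept its distance, with joint ratios of 1.06 [1.00-1.13] and 0.994 [0.937-1.05]. The profile ratios were 1.25 [1.18-1.33] for *Slf2*, called higher as in 22.4% of bins, and 1.15 [1.08-1.22] for *Twnk*.

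At single promoters, read over 3 x 3 bins and jointly scaled, the one partner with a *Twnk* ratio below 1 in each of the 5 mutants and an interval that left out 1 in at least 4 was *Fgf8*, out of the genes named here. In the wild-type this block held 324 read pairs. It held 253 in *Dup*, 587 in *Inv1*, 598 in *Inv2*, 41 in heterozygous *Dup* and 385 in heterozygous *Inv1*, from maps of unequal depth. The ratios were 0.848 [0.717-1.00], 0.820 [0.714-0.940], 0.833 [0.727-0.956], 0.627 [0.449-0.876] and 0.713 [0.614-0.828] in that order. *Fgf8* lies outside the intervals of *Inv1* and *Inv2*, so its distance to *Twnk* is 735 kb in those maps as in the wild-type. The pair was singled out after its values were seen, and the 5 ratios share the 1 wild-type value, which was 1.63 times the mean for the distance. The telomeric boundary, which holds the *Fgf8* start, had joint *Twnk* ratios of 0.913 in *Inv1* and 0.856 in *Inv2*, with intervals that hold 1. Profile scaling gave 1.08 and 0.988. For all centromeric bins, the joint medians over that boundary were 0.936, 0.984, 0.920, 0.651 and 0.848 in the order above. Joint ratios below 1 were thus not particular to *Twnk*. *Oga*, 40 kb past *Fgf8*, stood at 0.950, 1.05, 0.963, 0.821 and 0.929 with *Twnk*, each with an interval that holds 1.

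*Slf2* with *Fgf8* stood at 1.17 [0.969-1.42] in *Dup*, 0.927 [0.791-1.09] in *Inv1*, 0.849 [0.722-0.999] in *Inv2*, 0.619 [0.418-0.915] in heterozygous *Dup* and 0.812 [0.679-0.971] in heterozygous *Inv1*. *Slf2* with *Fbxw4* was 1.81 [1.42-2.30] in *Dup* (290 read pairs against 120), where *Fbxw4* is duplicated and joint scaling raises its distance class, and 1.30 [1.03-1.64] in *Inv2*. *Twnk* with *Fbxw4* was 1.24 [1.03-1.48] in *Dup*, 0.810 [0.675-0.973] in *Inv1*, 1.14 [0.954-1.36] in *Inv2*, 1.34 [1.04-1.73] in heterozygous *Dup* and 0.850 [0.699-1.03] in heterozygous *Inv1*, with an interval that holds 1 in *Inv2* and heterozygous *Inv1*. *Slf2* with *Fbxw4* was 0.977 [0.771-1.24] in *Inv1*, 1.67 [1.24-2.25] in heterozygous *Dup* and 1.10 [0.857-1.42] in heterozygous *Inv1*. *Slf2* with *Pax2*, which no rearrangement touches, was also below 1 in each mutant, at 0.957 [0.876-1.04] in *Dup*, 0.812 [0.747-0.882] in *Inv1*, 0.852 [0.784-0.926] in *Inv2*, 0.831 [0.725-0.951] in heterozygous *Dup* and 0.891 [0.817-0.972] in heterozygous *Inv1*. *Twnk* with *Pax2* stayed between 0.957 and 1.03 in the 5 mutants, with intervals that hold 1. *Slf2* with *Lbx1* ranged from 0.956 to 1.09 and *Twnk* with *Lbx1* from 0.904 to 1.18.

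**Figure D4:**
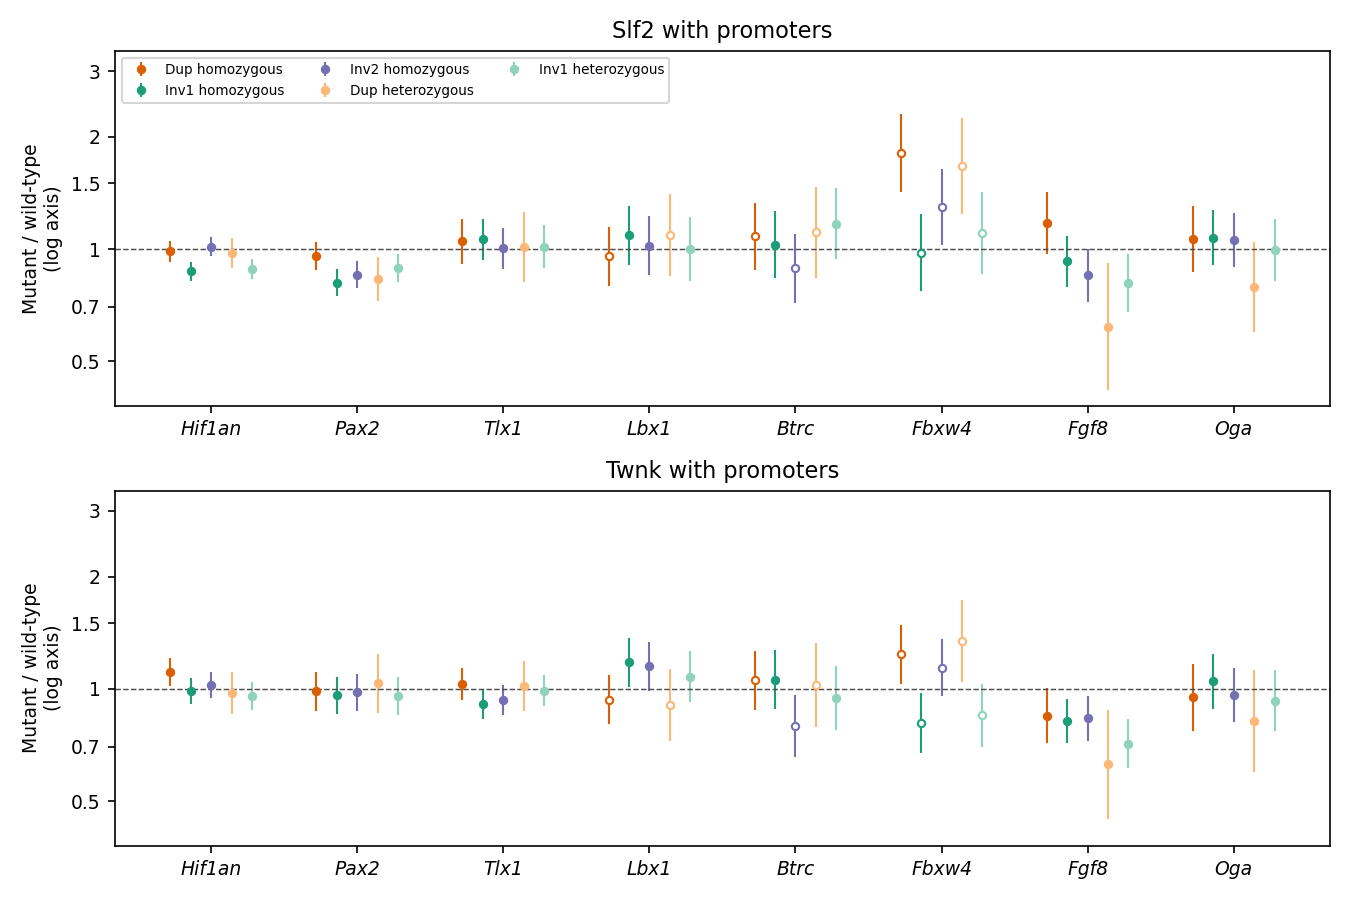
Mutant over wild-type contact (log axis) of *Slf2* (top) and *Twnk* (bottom) with 8 promoters over 3 x 3 bins, jointly scaled. Bars are 95% counting intervals, colours are genotypes and hollow points are partners inside the rearranged interval. *Twnk* with *Fgf8* lies below 1 in the 5 mutants (0.627 to 0.848), and *Slf2* with *Fbxw4* reaches 1.81 in homozygous *Dup*.

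Most single bin pairs of the flanking promoters outside the rearranged intervals stayed within 1.5-fold of the wild-type. Of pairs with at least 20 wild-type read pairs, 1 was higher and 2 were lower for *Slf2* in *Dup* (of 181), and 5 and 7 for *Twnk* (of 190), where 6.52% of all such pairs in the map were past 1.5-fold. In *Inv1*, 3 were higher and 7 lower for *Slf2* (of 228) and 4 and 11 for *Twnk* (of 253), where 6.66% of all pairs were. In *Inv2* it was 1 and 4 for *Slf2* (of 192) and 0 and 9 for *Twnk* (of 203), beside 4.63% of all pairs. The shares were thus 1.66%, 4.39% and 2.60% for *Slf2* and 6.32%, 5.93% and 4.43% for *Twnk*, none above the background of its map. The minimum is set on the wild-type alone and so favours pairs that are high there. With no minimum, 20 pairs were higher and 10 lower for *Slf2* in *Inv2* (of 294) and 18 and 14 for *Twnk* (of 294), so the 0 and 9 for *Twnk* above give no direction.

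The heterozygous maps are set beside the homozygous ones for their values only. In heterozygous *Dup*, joint contact with the enhancer region was 1.13 [0.958-1.34] for *Slf2* (242 read pairs) and 1.25 [1.08-1.44] for *Twnk* (328 read pairs), the latter called higher, where 21.4% of centromeric bins were called. Profile scaling turned both calls, with 1.23 [1.04-1.46] for *Slf2*, called higher, and 1.17 [1.01-1.36] for *Twnk*, not called, beside 22.6% of bins. The telomeric boundary held 13 read pairs with *Slf2*, a ratio of 0.384 [0.217-0.681], and 25 with *Twnk*, a ratio of 0.600 [0.393-0.917]. Both were called lower, as were 25.8% of centromeric bins, whose median was 0.651. The single *Slf2* and *Fgf8* bin pair held 0 read pairs. In heterozygous *Inv1* the enhancer region stood at 0.987 [0.865-1.13] and 0.932 [0.832-1.04], neither called, beside 23.0% of bins. Bin pairs past 1.5-fold outside the interval were 30 of 181 for *Slf2* and 31 of 190 for *Twnk* in heterozygous *Dup*, beside 15.2% of all pairs, and 16 of 228 and 20 of 253 in heterozygous *Inv1*, beside 8.03%. Both shares were close to those of all bin pairs in the same map.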

How the data were processed

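Per the methods and the submitters' processing notes, the authors mapped reads with HiCUP and Bowtie2 2.4.2 to mm9, kept deduplicated pairs of sufficient mapping quality, merged replicates and deposited 5 kb maps of contact signal: after Knight-Ruiz balancing with Juicer tools 1.19.02 for the wild-type and inversions, and after LOIC normalization, which keeps copy number, for *Dup*. Reads of rearranged alleles thus stand in the reference order. The 3 deposited subtraction maps hold the authors' own comparisons and were not used.

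Python 3.11.15, numpy 2.4.6 and matplotlib 3.10.9 were used. Dividing out the factor of each bin returned whole read pairs for 100% of values (within 0.01). Bins with values numbered 389 in the Knight-Ruiz and 387 in the *Dup* maps. A counting interval extends 1.96 standard errors of the log ratio. *Dup* maps were balanced to equal bin totals, then scaled jointly with the wild-type to 1000000. Profiles were scaled to 1000, leaving out the viewpoint with 5 kb around it. Groups came from sample titles. The steps were tested on simulated maps. Genes and starts are from GENCODE on mm9 and breakpoints from matches of the guides.

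Named were *Slf2*, *Twnk* and genes starting in their bins, 9 partner genes of the locus, the 5 other start bins with the highest wild-type value and the 3 most like profiles per promoter. The least like profiles, *Pprc1* in the mutants and the *Hif1an* stretch were added after values were seen. Members and lists were chosen with earlier results of these data known. Alternatives were a viewpoint of 3 bins, profile scaling, read pairs, LOIC as deposited, minimum read pairs, a margin of 25 kb, the 50 kb AER interval, single bin pairs and same-side scaling.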

Additional observations from a re-analysis of the deposited data

How the results depend on the processing

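No paired analysis was possible because the replicates of each genotype were merged before deposit, and leaving out replicates could not be run for the same reason. Of 57 alternative values, 28 stayed within the interval or within 1.5 times the count reported, 27 moved and 2 turned direction. The 2 that turned were *Slf2* with the enhancer region in *Dup* under same-side scaling, chosen after seeing the data, at 0.939 (1.38 as reported), and *Twnk* with the enhancer region in *Inv1* in read pairs, at 1.04 (0.855 as reported). In *Dup*, contact with the enhancer region moved to 1.04 (profile), 1.67 (read pairs) and 2.22 (LOIC as deposited) for *Slf2* and to 1.02, 1.502 and 2.07 for *Twnk*, and to 1.01 for *Twnk* under same-side scaling. The read pairs and LOIC values include the extra copy by construction. In *Inv1* it moved to 1.18 (profile) and 1.23 (read pairs) for *Slf2* and 0.991 (profile) for *Twnk*, and in *Inv2* to 1.299 for *Slf2* in read pairs. The wild-type *Lbx1* TAD value moved from 0.394 to 0.423 with 3 bins and 0.536 in read pairs for *Slf2*, and from 0.432 to 0.529 in read pairs for *Twnk*. Its share moved to 5.28% and 8.20% with the margin of 25 kb, and the single *Slf2* and *Twnk* bin pair gave 1.16. Bin pairs past 1.5-fold for both promoters together, 15 in *Dup*, 25 in *Inv1*, 14 in *Inv2*, and 61 and 36 in the *Dup* and *Inv1* heterozygotes, became 2, 4, 2, 16 and 3 with at least 50 read pairs and 83, 74, 62, 150 and 119 with no minimum. The cause of these and the other moves was not tested. The viewpoint of 3 bins, the minimum of 10 read pairs and the AER interval left each of the 6 enhancer ratios of the homozygous mutants within its interval, but with the AER interval 2 of them became called, *Slf2* in *Inv2* (1.25) and *Twnk* in *Inv1* (0.802). Depth limits single bin pairs past *Fgf8*, which held 7 to 46 wild-type read pairs at the named promoters, and the heterozygous *Dup* map most.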
